A study of Canis lupus familiaris with 60 samples.

Results

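CCL17, also called TARC, was described in the skin of sensitized and nonsensitized dogs through every array probe that carries its dog RefSeq transcript, NM_001003051. The rule found 1 probe among the 60068 probes of the array, and CCL17 is 1 of the 1066 genes that could be named on it, so all CCL17 values below are those of this probe. Its signal was well above background in every biopsy. In the RefSeq gene table of the assembly UU_Cfam_GSD_1.0, CCL17 lies between CIAPIN1 and the chemokine gene CX3CL1, and CX3CL1 is followed by CCL22. The array was designed on the build canFam2, so no coordinates are given.

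Biopsies of 12 Beagles aged 2 to 3 years were hybridized to one-colour Agilent arrays, with 6 dogs previously sensitized through the skin to the house dust mite Dermatophagoides farinae and 6 nonsensitized dogs. Each dog received a patch of 75 mg mite paste (allergen) and a patch of 50 µl saline on the clipped lateral chest, 4 days after clipping. The 5 biopsies of each dog were 8-mm punches under local lidocaine and covered untreated skin (0 hr) and the allergen and saline sites at 6 hr and 24 hr. This gave 10 groups of 6 arrays, in which the biopsies of a group are from different dogs and each dog is in 5 groups. The dogs of both groups shared the clipping, the bandages, the anesthetic and the housing. Sex was not balanced, since most sensitized dogs were male and most nonsensitized dogs were female. The part of sex in the differences between the groups of dogs was not tested. The sensitized dogs are experimentally sensitized animals of a single breed rather than patients with spontaneous disease. Specimen 14, the 24 hr allergen site of sensitized dog 2839, had degraded RNA and was left out of the fits except where all 60 arrays are named, so that group has n = 5, and its value is given separately.

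CCL17 is a small secreted chemokine made by dendritic cells, keratinocytes and endothelial cells. It binds the receptor CCR4, which is carried by T helper 2 cells and by T cells that home to the skin, and it draws these cells into tissue. In people with atopic dermatitis its serum level is a widely used marker of disease activity, and the cytokines IL4 and IL13 are known inducers of the gene.

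CCL17 was raised at the allergen sites of the sensitized dogs at 24 hr. These 5 sites had 7.29-fold more CCL17 signal than the 6 saline sites of the same group of dogs (log2 difference 2.87, SE 0.65), and 6.43-fold more than the 6 allergen sites of the nonsensitized dogs (log2 difference 2.69, SE 0.65). Untreated skin and the 6 hr sites gave no such difference that passed the test. The means of the 24 hr saline sites were equal with all dogs, and the sensitized dogs were lower by a difference of -0.51 (SE 0.48) without dog 2853, which was not called (limma, adjusted p = 0.606). All levels below are normalized log2 signals, on which a difference of 1 is 2-fold. In whole biopsies, more cells that express CCL17 and more CCL17 RNA per cell cannot be told apart.

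In untreated skin of nonsensitized dogs the level ranged from 6.31 to 7.87 with a median of 7.03. In untreated skin of sensitized dogs it ranged from 6.96 to 10.78 with a median of 7.17. The medians lay close together and the ranges overlapped, and the highest value was that of a single dog, 2853, with the other sensitized dogs between 6.96 and 7.36. The means were 7.10 ± 0.55 (SD, n = 6) and 7.73 ± 1.5 (SD, n = 6), a difference of 0.63 (SE 0.62) that was not called (limma, adjusted p = 1). A call here and below is an adjusted p below 0.05 and at least 1.5-fold, and 0.00218% of the 45972 probes tested were called in this comparison. The 95% confidence interval of the difference reached from -0.61 to 1.87, which includes both 0 and a 2-fold higher level in sensitized dogs. Without dog 2853 the sensitized mean was 7.12 ± 0.21 (SD, n = 5), and the fitted difference from the nonsensitized dogs was 0.02.

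**Figure D1:**
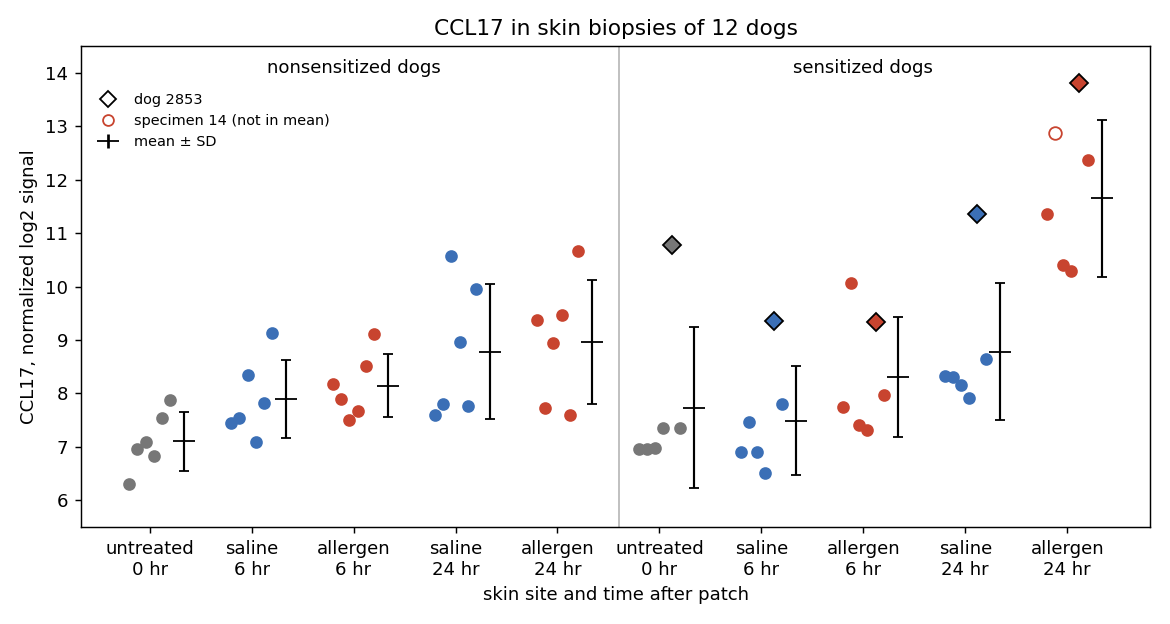
Normalized log2 signal of CCL17 (y axis) in each biopsy, by group of dogs, skin site and time (x axis). Points are single dogs, diamonds mark dog 2853, the open circle is specimen 14 (12.87, scaled with all 60 arrays and not in the mean), and bars show mean ± SD. The 5 sensitized allergen sites at 24 hr sit between 10.3 and 13.8, and the mean of every other group lies below 9.

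At 6 hr, the saline sites of nonsensitized dogs ranged from 7.1 to 9.13 (median 7.69) and their allergen sites from 7.51 to 9.11 (median 8.03). In the sensitized dogs the saline sites ranged from 6.51 to 9.35 (median 7.18) and the allergen sites from 7.32 to 10.06 (median 7.85). The ranges of the allergen and saline sites overlapped in both groups of dogs. Allergen minus saline was 0.81 (SE 0.62) in sensitized dogs (limma, adjusted p = 0.826) and 0.25 (SE 0.62) in nonsensitized dogs (limma, adjusted p = 0.99). The difference between these values was 0.57 (SE 0.88, limma, adjusted p = 1), and it was 0.21 without dog 2839 and 0.35 without dog 2800, and 0.98 with the slide as a fixed block (limma, adjusted p = 1). Without dog 2839 the response of the sensitized dogs was 0.46. These are comparisons in which 0.418%, 0.0348% and 0% of the probes were called, and the 95% confidence interval of the sensitized value (-0.43 to 2.06) includes both 0 and a 4-fold higher level.

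Within single sensitized dogs, the 6 hr allergen site was above the saline site in 5 of 6. Dog 2839 stood apart with 10.06 at the allergen site and 7.46 at the saline site, a difference of 2.6 or 6.07-fold, while the other dogs differed by -0.02 to 0.83. The mean within-dog difference was 0.81 ± 0.94 (SD, n = 6, exact sign flips within dogs, two-sided p = 0.0625, with 0.0312 the smallest p that 6 dogs allow). Adjusted over the 18 exact tests on CCL17 this p was 0.125. Dog 2839 is also the dog of specimen 14.

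At 24 hr the allergen sites of the 5 sensitized dogs in the fit were at 11.36 (dog 2838), 10.41 (dog 2840), 10.3 (dog 2841), 13.8 (dog 2853) and 12.37 (dog 2855). Their saline sites, with dog 2839 included, ranged from 7.92 to 11.36 with a median of 8.31. All 5 allergen values were above the saline values of the other dogs, and the saline level of dog 2853, 11.36, lay among the allergen values. In units of the scanner, the processed signal of dog 2855 was 429.51 at the saline site and 5304 at the allergen site, and that of dog 2853 was 2719 and 18234.

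The means were 11.65 ± 1.46 (SD, n = 5) at the allergen sites and 8.78 ± 1.28 (SD, n = 6) at the saline sites, a difference of 2.87 (SE 0.65, limma, adjusted p = 0.021). In this comparison 0.274% of the probes were called, and 5 of the 45972 probes had a larger rise. Leaving out single dogs moved the adjusted p across the threshold while the size stayed similar. Without dog 2838, 2839 or 2855 the difference was 2.85, 2.77 or 2.66 and the adjusted p was 0.106, 0.069 or 0.186 (limma). Fitting each time point alone left it at 2.87 with an adjusted p of 0.104, and unscaled signals gave 2.91 with an adjusted p of 0.076 (limma).

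In nonsensitized dogs at 24 hr the saline sites ranged from 7.6 to 10.57 (median 8.39) and the allergen sites from 7.59 to 10.67 (median 9.15). The ranges were nearly the same. The means of 8.78 ± 1.26 and 8.96 ± 1.16 (SD, n = 6 each) differed by 0.18 (SE 0.62, limma, adjusted p = 0.993, 95% confidence interval -1.06 to 1.43), and 0.766% of the probes were called. In 3 of the 6 dogs the allergen site was higher and in 3 the saline site. Dog 2704 had the largest difference in favour of allergen with 1.77, and dog 2800 the largest in favour of saline with -1.63, its levels being 10.57 under saline and 8.94 under allergen. The sign of the mean depended on dog 2704, without which it was -0.13.

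**Figure D2:**
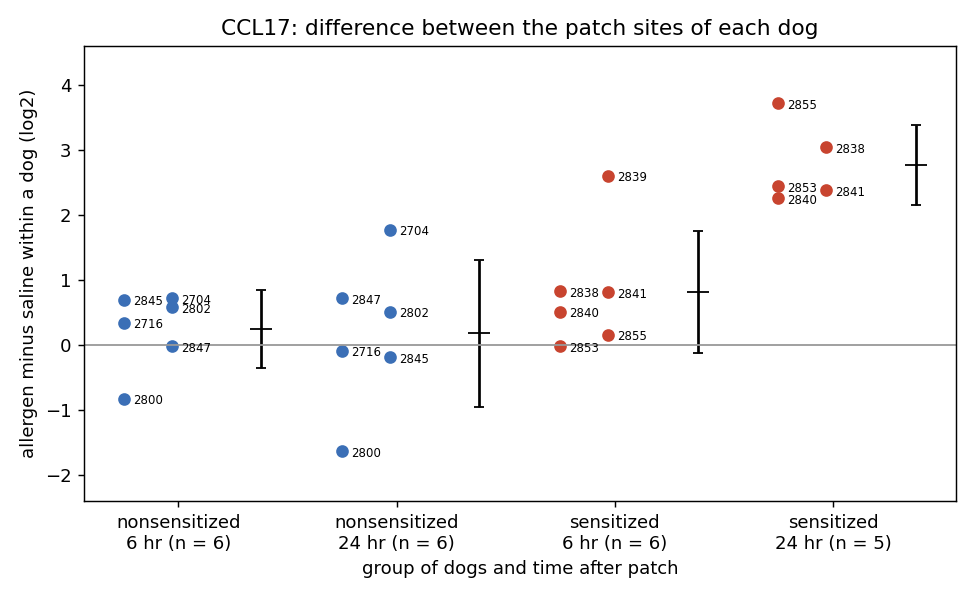
Allergen minus saline within each dog (y axis, log2) by group of dogs and time after the patch (x axis), each point labelled with its dog and bars showing mean ± SD. All 5 sensitized dogs at 24 hr lie between 2.26 and 3.72, above every nonsensitized dog (-1.63 to 1.77).

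Dog by dog, the 24 hr allergen site held more CCL17 than the saline site in 5 of 5 sensitized dogs. The differences were 3.04 in dog 2838, 2.26 in dog 2840, 2.38 in dog 2841, 2.44 in dog 2853 and 3.72 in dog 2855, or 4.81-fold to 13.2-fold. The smallest of these was above the largest of the nonsensitized dogs, so the groups of dogs did not overlap. The mean was 2.77 ± 0.61 (SD, n = 5), and sign flips within dogs gave an exact two-sided p = 0.0625, the smallest that 5 dogs allow.

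The question of the study at 24 hr was whether the response to allergen differed between the groups of dogs. The sensitized response exceeded the nonsensitized response by 2.68 on the log2 scale (SE 0.9, 95% confidence interval 0.88 to 4.48). In the unpaired fit this was not called (limma, adjusted p = 0.116), in a comparison in which 0.94% of the probes were called. With the dog as a fixed block the value was 2.71 (limma, adjusted p = 0.00292), and with the dog as a random block 2.7 (limma, adjusted p = 0.0102), so taking the pairing of sites within dogs into account brought it past the threshold. Without dog 2853, which had high levels at both sites, the unpaired difference was 2.66 (limma, adjusted p = 0.0437). Over the within-dog differences the groups of dogs differed by 2.59 (n = 5 and 6, exact permutation over the dogs, two-sided, p = 0.00433, smallest possible 0.00216), with an adjusted p of 0.0779 over the 18 exact tests.

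**Figure D3:**
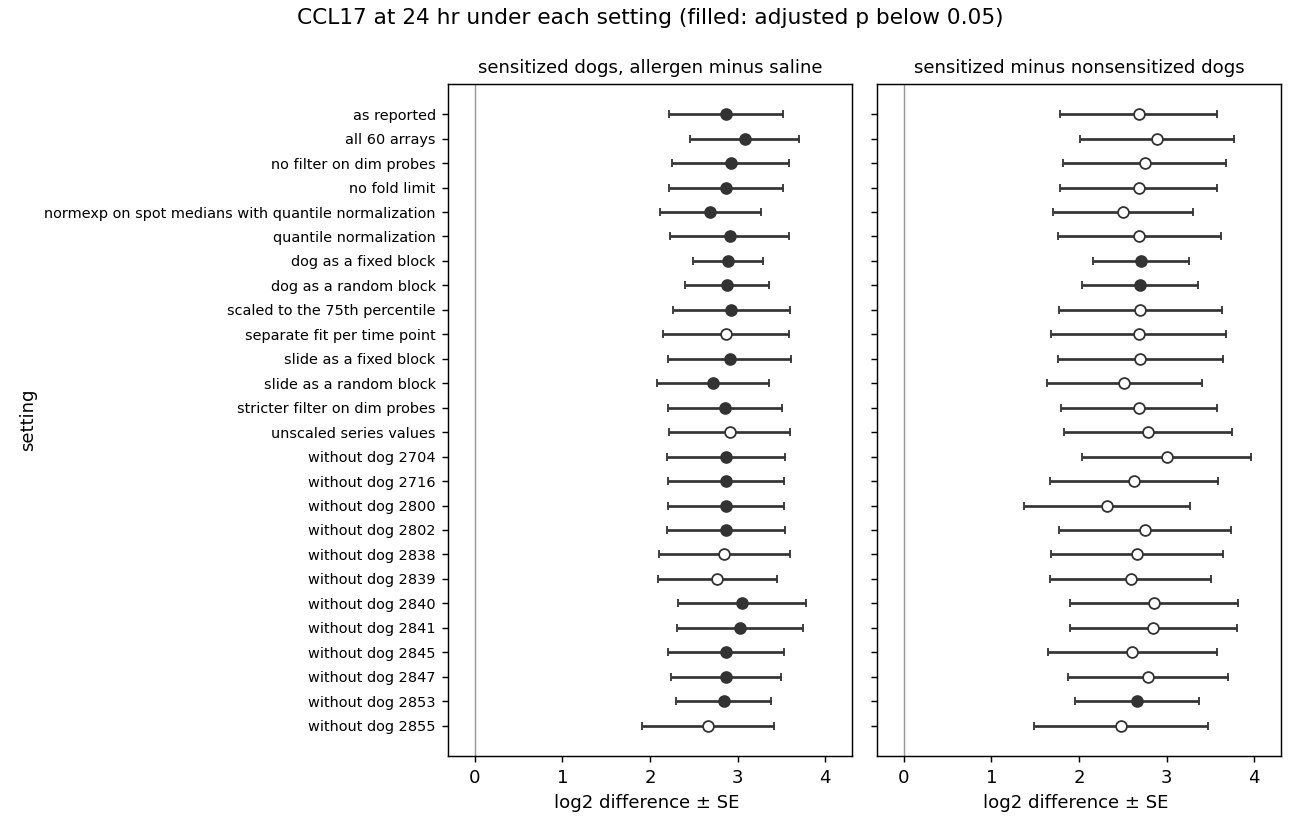
Log2 difference ± SE of CCL17 at 24 hr (x axis) under each setting and without each dog (y axis), for allergen minus saline in sensitized dogs on the left and for the difference of this response between sensitized and nonsensitized dogs on the right. Filled points have an adjusted p below 0.05. The values stay between 2.66 and 3.08 on the left and between 2.32 and 3 on the right while the adjusted p crosses the threshold.

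Compared directly, the 24 hr allergen sites of sensitized dogs were above those of nonsensitized dogs by 2.69 (SE 0.65, limma, adjusted p = 0.00259). Here 7.13% of the probes were called, a larger share than in the comparisons of allergen with saline sites within a group of dogs. The lowest sensitized value, 10.3, was above 5 of the 6 nonsensitized values, with dog 2847 at 10.67 the exception. The exact two-sided permutation test over the dogs gave p = 0.00866 (n = 5 and 6, adjusted p = 0.0779). With the slide as a fixed block the difference was 2.33 (limma, adjusted p = 0.0531). At the 24 hr saline sites the same comparison gave 0.00 (SE 0.62, 95% confidence interval -1.24 to 1.25, limma, adjusted p = 0.999, 2.38% of probes called).

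The slides were not balanced over the design, since the 24 hr biopsies lay on slides 1 to 3 except for a pair of arrays on slide 8. Within slide 3, the mean of 3 sensitized allergen sites exceeded that of 3 saline sites by 3.2, and within slide 2 a single allergen site exceeded 2 saline sites by 2.07. In nonsensitized dogs the same difference was 0.22 within slide 1 (4 allergen and 3 saline arrays), 0.28 within slide 2 (1 and 2 arrays) and 0.51 within slide 3 (1 and 1 array). Between the allergen sites of sensitized and nonsensitized dogs the difference was 0.93 within slide 2 (1 array each) and 3.03 within slide 3 (3 and 1 arrays). Arms of 1 array have no replicate, so these are values with no test.

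Specimen 14, with CCL17 at 12.87 when all 60 arrays were scaled together, was above the saline site of the same dog at 8.28 by 4.59. This was the highest allergen level after that of dog 2853. With this array included, allergen minus saline in sensitized dogs at 24 hr was 3.08.

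Over time, CCL17 rose at the allergen sites of sensitized dogs from a mean of 8.3 at 6 hr to 11.65 at 24 hr, by 3.34 (SE 0.65, 10.1-fold, limma, adjusted p = 0.00104). In this comparison 2.06% of the probes were called, and 3 of the 45972 probes rose more. The allergen sites of nonsensitized dogs differed by 0.81 between the same times (SE 0.62, limma, adjusted p = 0.345, 8.08% called). Time and slide were largely the same split of the arrays, and with the slide as a fixed block these values were 0.84 (limma, adjusted p = 0.788) and -0.79, so a change with time and a difference between slides cannot be told apart.

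The difference between allergen and saline sites of sensitized dogs was larger at 24 hr than at 6 hr in 5 of 5 dogs, by 1.57 to 3.56 within a dog, a comparison added after the values had been seen. The fitted gain was 2.05 (SE 0.9, 95% confidence interval 0.25 to 3.85). It was not called in the unpaired fit (limma, adjusted p = 1, 0.0261% of probes called) nor with the dog as a fixed block (2.07, limma, adjusted p = 0.109).

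The saline sites were read in the same way. In nonsensitized dogs the level at the saline site was above untreated skin at 6 hr in 6 of 6 dogs, by 0.8 on average (SE 0.62, exact sign flips, two-sided p = 0.0312, adjusted p over 18 tests 0.125), and the unpaired fit did not call it (limma, adjusted p = 0.436, 2.26% of probes called). With the slide as a fixed block it was 1.56 (limma, adjusted p = 1), and time and slide cannot be told apart here. In sensitized dogs the same change was -0.24 (SE 0.62, limma, adjusted p = 0.842, 2.64% called), with 2 dogs higher and 4 lower, and 0.73 with the slide as a fixed block. From 6 hr to 24 hr the level at the saline site was higher in 6 of 6 sensitized dogs, by 1.29 on average (SE 0.62, exact sign flips, two-sided p = 0.0312, the smallest that 6 dogs allow, adjusted p over 18 tests 0.125). The unpaired fit did not call it (limma, adjusted p = 0.189, 2.58% of probes called), the dog as a fixed block did (limma, adjusted p = 0.0115), and so did the random block (limma, adjusted p = 0.0384). With the slide as a fixed block the sign turned to -1.38. In nonsensitized dogs 5 of 6 were higher at 24 hr than at 6 hr, by 0.88 on average (SE 0.62, limma, adjusted p = 0.289, 9.56% called). With the slide as a fixed block this value was -1.28. Against untreated skin, the 24 hr saline site was higher in 6 of 6 sensitized dogs (mean 1.05 ± 0.37, SD) and in 6 of 6 nonsensitized dogs (mean 1.67 ± 1.14, SD). The unpaired fit called the second of these (1.67, SE 0.62, limma, adjusted p = 0.0203, 22.7% of probes called) and not the first (limma, adjusted p = 0.192, 9.48% called). The 24 hr allergen site was above untreated skin in 5 of 5 sensitized dogs, by 3.91 in the fit (SE 0.65, limma, adjusted p = 6.2e-06, 13.7% called), and in 6 of 6 nonsensitized dogs, by 1.86 (SE 0.62, limma, adjusted p = 0.0122, 17% called). Thus CCL17 was also higher at both patch sites of nonsensitized dogs at 24 hr than in their untreated skin. The 24 hr arrays and the untreated arrays lay on different slides but for the 24 hr allergen arrays of dogs 2839 (specimen 14, not in the fit) and 2840 on slide 8, so time, patch and slide cannot be told apart here, and these 4 differences were not run under the alternatives.

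**Figure D4:**
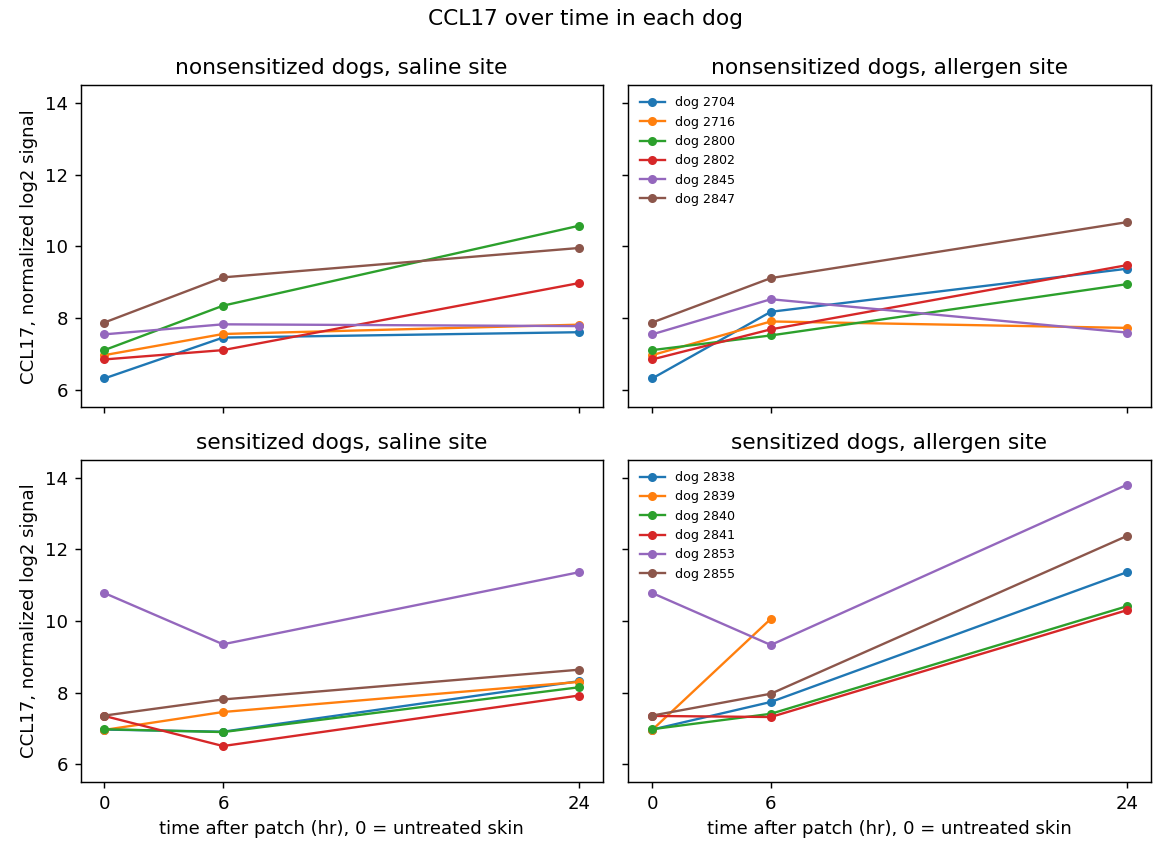
Normalized log2 signal of CCL17 (y axis) against time after the patch (x axis, hr) in each dog, for nonsensitized dogs (top) and sensitized dogs (bottom) at saline sites (left) and allergen sites (right), with untreated skin at 0 hr in both. The allergen sites of the sensitized dogs reach 10.3 to 13.8 at 24 hr, and dog 2853 starts at 10.78.

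Ordered by mean, the 10 levels were untreated skin of nonsensitized dogs (7.1), 6 hr saline of sensitized dogs (7.49), untreated skin of sensitized dogs (7.73), 6 hr saline of nonsensitized dogs (7.9), 6 hr allergen of nonsensitized dogs (8.15), 6 hr allergen of sensitized dogs (8.3), 24 hr saline of nonsensitized dogs (8.78), 24 hr saline of sensitized dogs (8.78), 24 hr allergen of nonsensitized dogs (8.96) and 24 hr allergen of sensitized dogs (11.65). The 8 lower steps between neighbours were 0 to 0.47 with overlapping ranges, and none was called (limma, adjusted p 0.613 to 0.999). The top step of 2.69 was the single one between neighbours that was called.

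Dog 2853 was above the mean of the other sensitized dogs at every site. Its excess over that mean was 3.66 in untreated skin (12.6-fold), 2.23 at the 6 hr saline site, 1.23 at the 6 hr allergen site, 3.09 at the 24 hr saline site and 2.69 at the 24 hr allergen site. In untreated skin 3 of the 45972 probes had a larger excess in this dog. The other chemokines went both ways in the same biopsy, from an excess of 3.58 for CXCL8, 2.74 for CCL5, 1.43 for CCL4 and 1.11 for CCL24 down to negative values that included -0.45 for CCL2 and -0.5 for CCL20, and CCL17 was second to SST (4.22), the somatostatin gene, among the 906 named genes. It was the highest of all dogs at 4 of the 5 sites, and at the 6 hr allergen site dog 2839 was higher. The response of dog 2853 to allergen at 24 hr, 2.44, lay within the range of the other sensitized dogs (2.26 to 3.72). Without it, the 24 hr means of sensitized dogs were 11.11 ± 0.96 (SD, n = 4) for allergen and 8.26 ± 0.27 (SD, n = 5) for saline, and those ranges no longer overlapped.

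A list of CCL17's receptor axis held 9 genes, of which 3 were measured: CCL17, its receptor CCR4 and CCL1, the ligand of the related receptor CCR8. CCL17 was the 1 member called higher at 24 hr in sensitized dogs, where 0.174% of all probes were called higher. The list's median difference was 0.23, beside a median of 0 over all probes. CCR4 had a mean of 6.17 ± 0.24 (SD, n = 5) at the allergen sites and 5.94 ± 0.22 (SD, n = 6) at the saline sites, a difference of 0.23 (SE 0.12, limma, adjusted p = 0.48). CCL1 differed by 0.19 (SE 0.38, limma, adjusted p = 0.962). Between the 24 hr allergen sites of the groups of dogs CCR4 was higher in sensitized dogs by 0.55 (SE 0.12, limma, adjusted p = 0.00105). This is under the 1.5-fold limit, in a comparison in which 7.13% of all probes were called. CCL1 differed there by 0.62 (SE 0.38, limma, adjusted p = 0.226). CCL22, the other ligand of CCR4, had no probe with a name here.

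A list of 28 genes held signals known to induce CCL17 together with their receptors, transducers and inhibitors. Of these, 7 passed the filter on dim probes, and the inducers IL4, IFNG and IL1B were on the array without passing it. The member called between allergen and saline sites at 24 hr was IL13RA2, which encodes a decoy receptor that binds IL13 and is not itself an inducer. It was higher at the allergen site of sensitized dogs by 1.02 (SE 0.26, limma, adjusted p = 0.0443, with 0.174% of all probes called higher) and lower at that of nonsensitized dogs, with a difference of -1.19 (SE 0.25, limma, adjusted p = 0.00372, with 0.659% of all probes called lower). The response thus differed between the groups of dogs by 2.22 (SE 0.36, limma, adjusted p = 0.00139, with 0.6% of all probes called higher). IL13 itself was at 6.44 ± 1.24 (SD, n = 5) at the sensitized allergen sites and 5.18 ± 0.73 (SD, n = 6) at the saline sites, a difference of 1.26 (SE 0.41) that was not called (limma, adjusted p = 0.164). Its probe was well above background at 5 of the 5 allergen sites and at 3 of the 6 saline sites. CSF2, which encodes GM-CSF, differed by 0.71 (SE 0.27, limma, adjusted p = 0.261). TNF, IL1A, IL2RG and NFKB1 differed by -0.11 to 0.3, none of them called. The median of the list was 0.3, beside 0 over all probes. Between the 24 hr allergen sites of sensitized and nonsensitized dogs, where 7.13% of all probes were called, 3 of the 7 were called higher in sensitized dogs, IL13 by 1.16 (SE 0.41), CSF2 by 0.88 (SE 0.27) and IL13RA2 by 1.49 (SE 0.26) (limma, adjusted p 0.0332, 0.0165 and 7.09e-05). The IL13 probe was well above background at 5 of the 6 nonsensitized allergen sites.

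Among 17 further genes of type 2 immunity, 6 were measured, with a median of 0.39 between allergen and saline sites of sensitized dogs at 24 hr beside 0 over all probes. None was called there, where 0.274% of all probes were called, so the count separates them little from the background. IL31, the itch cytokine, differed by 0.56 (SE 0.14, limma, adjusted p = 0.0378), which is under the 1.5-fold limit. Its means in sensitized dogs were 5.59 at the allergen sites, 5.03 at the saline sites and 5.45 in untreated skin. Its probe was dim, being well above background at 5 of 5 allergen and 5 of 6 saline sites of sensitized dogs but at 1 of 6 of either site in nonsensitized dogs, so no difference between the groups of dogs is given for it. CCR3, an eosinophil receptor, passed the filter only through the 24 hr allergen sites of sensitized dogs (5 of 5 well above background). No comparison that involves these sites is therefore given for it. IL33, an alarmin of epithelial cells, was lower at the allergen sites of nonsensitized dogs, with a difference of -1.78 (SE 0.45, limma, adjusted p = 0.0251, with 0.659% of all probes called lower).

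Of 32 other chemokines listed, 15 passed the filter, and 4 of these were called higher at the sensitized allergen sites at 6 hr, where 0.402% of all probes were called higher. These were CCL2 by 2.85 (SE 0.42), CCL8 by 2.89 (SE 0.42) and CCL13 by 1.24 (SE 0.23), which attract monocytes, and CCL20 by 2.75 (SE 0.5), the ligand of CCR6 (limma, adjusted p 5.97e-05 to 0.00251). CCL17 differed by 0.81 at that time and was not called. At 24 hr in sensitized dogs CCL17 was called at 2.87 and 0 of the 15 were called, in a comparison that called 0.174% of all probes higher, so that a count of 0 among 15 genes separates them little from the background. In sensitized dogs the remaining 11 were called at neither time, and CCL5, a chemokine for T cells, differed by -0.17 at 6 hr and 0.98 at 24 hr (limma, adjusted p = 0.437). Between the 24 hr allergen sites of the groups of dogs, 7.13% of all probes were called. There 6 of the 15 were called higher in sensitized dogs, as was CCL17 (2.69). They were CCL2 by 2.09, CCL4 by 1.8, CCL8 by 2.48, CCL13 by 1.15, CCL19 by 1.93 and CCL20 by 2.4 (limma, adjusted p 2.09e-05 to 0.000876).

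**Figure D5:**
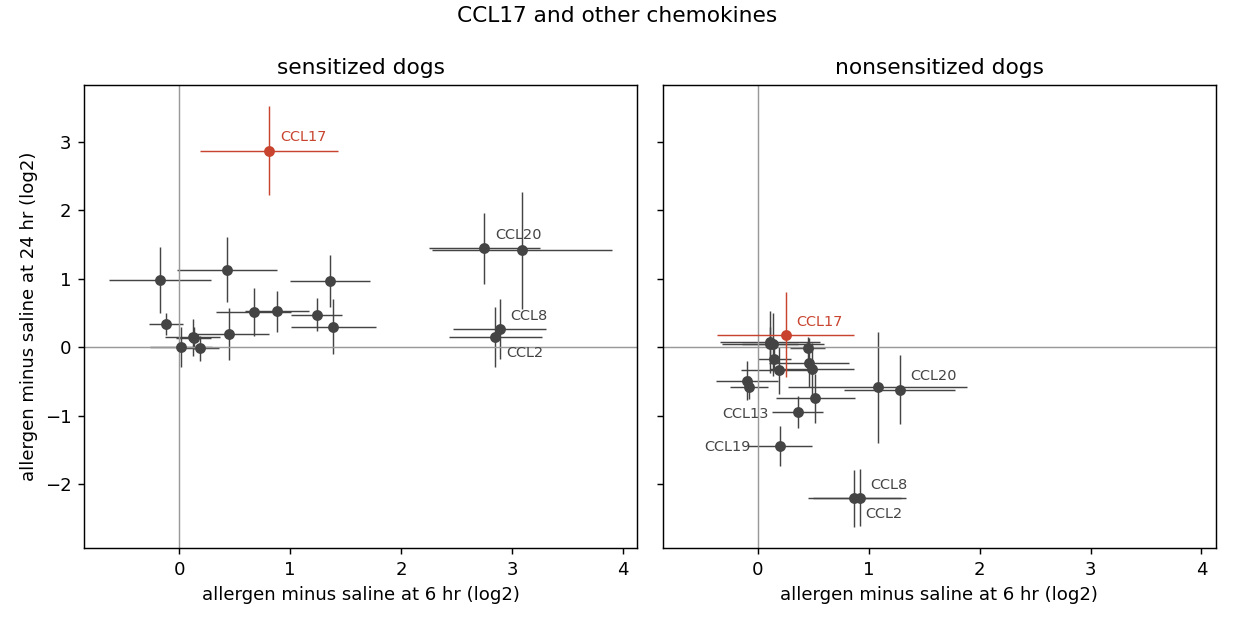
Allergen minus saline at 24 hr (y axis, log2) against allergen minus saline at 6 hr (x axis, log2) for 18 chemokines in sensitized dogs (left) and nonsensitized dogs (right), with SE as bars. CCL17 (red) lies at 2.87 for 24 hr and 0.81 for 6 hr in sensitized dogs, CCL2 and CCL8 at 0.15 and 0.26 for 24 hr and 2.85 and 2.89 for 6 hr.

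In sensitized dogs CCL2, CCL8, CCL13 and CCL20 differed by 0.15, 0.26, 0.47 and 1.44 between allergen and saline sites at 24 hr. In nonsensitized dogs 4 of the 15 were called lower at the allergen site at 24 hr, with differences of -2.21 for CCL2, -2.2 for CCL8, -0.95 for CCL13 and -1.44 for CCL19, which guides cells bearing CCR7 (limma, adjusted p 0.0015 to 0.018), where 0.659% of all probes were called lower. The same 4 genes had a larger response in sensitized than in nonsensitized dogs, by 2.36, 2.46, 1.42 and 1.97 (limma, adjusted p 0.0131 to 0.0361), where 0.6% of all probes were called in that direction. For these genes the difference between the groups of dogs went with allergen sites below the saline sites in nonsensitized dogs. For CCL17 it went with allergen sites above the saline sites in sensitized dogs, while CCL17 in nonsensitized dogs differed by 0.18. In nonsensitized dogs the means in untreated skin were 10.18 for CCL2, 7.25 for CCL8, 5.6 for CCL13 and 8.12 for CCL19. At 24 hr they were 12.01, 8.29, 6.64 and 10 at the allergen sites and 14.22, 10.49, 7.59 and 11.44 at the saline sites. The difference between CCL17 and any of these genes was not tested. Over the 15 genes the median was 0.34 at 24 hr in sensitized and -0.59 in nonsensitized dogs, beside 0 and 0.01 over all probes.

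Markers of the cells that make or receive CCL17 were read beside it. Of 5 dendritic cell markers measured of 13, none was called at 24 hr in sensitized dogs, where 0.274% of all probes were called, so that here and for the other marker lists a count of 0 says little. Their mean level was 7.87 to 8.65 at the allergen sites and 7.64 to 8.25 at the saline sites. CD40 differed by 0.81 (SE 0.28, limma, adjusted p = 0.203) and CD80 by 0.65 (SE 0.2, limma, adjusted p = 0.125). CD86, FLT3 and CD1C differed less, by 0.34, 0.04 and -0.06. Of the 3 T cell markers measured of 13, CD28, a costimulatory receptor, rose by 0.74 (SE 0.14, limma, adjusted p = 0.00285), while CD4 and CD8A differed by 0.04 and 0.17. Between the 24 hr allergen sites of the groups of dogs, CD28, CD8A and CD4 were higher in sensitized dogs by 0.55, 0.47 and 0.45. Their adjusted p was 0.003 to 0.0369 (limma), all were under the 1.5-fold limit, and 7.13% of all probes were called there. The mean of the 3 was 6.13 to 6.46 at the sensitized allergen sites and 5.87 to 6.23 at the sensitized saline sites. The 3 endothelial markers had a mean of 11.36 to 11.79 against 10.79 to 11.64. Among them SELE, an adhesion molecule of activated endothelium, differed by 1.53 (SE 0.41, limma, adjusted p = 0.0645), while KDR and VWF differed by 0.09 and -0.1. The SELE response was larger in sensitized than in nonsensitized dogs by 2.47 (SE 0.56, limma, adjusted p = 0.0188), where 0.6% of all probes were called in that direction. For KDR and VWF the difference between the responses was 0.66 and -0.16, neither of them called. Of the keratinocyte, fibroblast and macrophage markers measured (2, 3 and 1), none was called between allergen and saline sites of sensitized dogs at 24 hr, beside the same 0.274% of all probes. Between 6 hr and 24 hr at the sensitized allergen sites, where CCL17 differed by 3.34, the macrophage marker CD163 was higher at 24 hr by 1.06 (SE 0.28, limma, adjusted p = 0.0171), a difference in which time and slide cannot be told apart. The part of cell numbers in the CCL17 difference was not tested.

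By likeness of pattern, the 5 named genes nearest to CCL17 over the 59 arrays, among 905 compared, were LTB (r = 0.843), DLA-DQA1 (0.775), SLAMF1 (0.774), DLA-DQB1 (0.767) and CASP12 (0.767). LTB encodes lymphotoxin beta, DLA-DQA1 and DLA-DQB1 encode chains of an MHC class II molecule, and SLAMF1 encodes a receptor of activated lymphocytes. After removal of the 10 group means, which leaves the differences between dogs, they were CD40LG (0.756), CCL24 (0.732), CCL5 (0.728), LTB (0.717) and CD1A6 (0.638). CD40LG encodes a ligand on activated T cells, CCL24 and CCL5 encode chemokines for eosinophils and T cells, and CD1A6 is a CD1 gene. LTB was in both sets. Without dog 2853, r was 0.713 to 0.791 for the first set and 0.577 to 0.654 for the second. These are Pearson correlations over arrays that share dogs and slides, given as a description.

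A further probe ran almost in step with CCL17, with r = 0.999 over the 59 arrays and a log2 level within 0.23 of it on each. It carries the identifier ENSCAFT00000013912, for which the tables used here give no symbol, so it was not counted as a CCL17 probe and was singled out after its values had been seen. It differed by 2.87 (SE 0.65, limma, adjusted p = 0.0215) between allergen and saline sites in sensitized dogs at 24 hr and by 0.19 (SE 0.62, limma, adjusted p = 0.993) in nonsensitized dogs.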

How the data were processed

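The intensity values deposited by the authors were Feature Extraction 10.7.3.1 processed signals of 60 one-colour arrays (background already subtracted, arrays not scaled to each other, per the file headers). A pair of files were plain tables with rounded signals. Over the 59 arrays used, the median signal was 81.7 to 146.12 and 68.85% to 80.15% of spots were well above background. The number of dogs limits the precision.

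Spots flagged as outliers were set to missing, a step not taken from the study. Following the study's methods, spots were kept if at least 5 arrays of any group had them well above background (76.6%), and signals were normalized by variance stabilization, with the vsn model reimplemented and tested on simulated data. This transform is close to log2 for bright spots and compresses differences of dim ones. Spots of a probe were averaged. limma 3.58.1 (R 4.3.3, statmod 1.5.0) fitted the 10 group means, unpaired, with Benjamini-Hochberg adjustment over 45972 probes. Changes within a group of dogs were tested by exact sign flips and differences between the groups of dogs by exact permutation of labels (18 tests in all, numpy 2.4.6). The variance stabilization was fitted with scipy 1.17.1. Symbols came from RefSeq identifiers (1066 symbols found, 906 past the filter).

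Replicate numbers are dog numbers, so the 5 biopsies of a dog are paired. Residuals of arrays of the same dog correlated with a median r of 0.386 (116 pairs), against -0.044 for different dogs. The dog as a fixed or random block was an alternative. The other alternatives were the slide as a block, all 60 arrays, 75th percentile, quantile or normexp (offset 50) scaling, unscaled signals, other filters, no fold limit, a separate fit per time point and each dog left out. CCL17, the gene lists and the tests were chosen with earlier results of these data known. Genes of the CCL17 receptor and inducer lists could be named, others where called or among the 5 nearest by correlation. CD1C, CD4, CD8A, CD40, CD80, CD86, FLT3, KDR, VWF, CCL4, CXCL8 and SST were named after their values were seen. A gene with several probes is given by the brightest.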

Additional observations from a re-analysis of the deposited data

Results flagged for a closer look

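Within each group of 5 or 6 dogs, the highest and the lowest value of CCL17 were compared with the rest, and in 3 of 21 sets of values 1 dog stood apart from the others by more than the limit of Dixon's test. Chance alone flags about 1 in 20 independent sets. These sets share dogs and values, so the count of 3 cannot be set against that rate. Dog 2853 did so in untreated skin of sensitized dogs with 10.78, where the next dog had 7.36, and at the 24 hr saline site of sensitized dogs with 11.36, where the next dog had 8.64. Dog 2839 did so in the 6 hr allergen minus saline difference of sensitized dogs with 2.6, where the next dog had 0.83.

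The 24 hr response to allergen differed between sensitized and nonsensitized dogs by 2.59 over the within-dog differences (exact permutation of the sensitization labels, p = 0.00433, adjusted p = 0.0779, higher in 5 of 5 sensitized and 3 of 6 nonsensitized dogs). Specimen 14, left out of the comparisons except where all 60 arrays are named, had a CCL17 level of 12.87 against 8.28 at the saline site of the same dog.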

How the results depend on the processing

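Of 438 values of the 18 CCL17 comparisons under alternative settings or without a dog, 408 kept the direction and the side of the threshold, 7 lost a call, 6 gained one and 17 changed sign. Allergen minus saline at 24 hr in sensitized dogs lost its call in a separate fit per time point (2.87) and with unscaled signals (2.91), and without single dogs it was 2.66 to 3.05. The 24 hr difference between the groups of dogs gained a call with the dog as a fixed block (2.71) or random block (2.7), and ranged from 2.32 to 3 without single dogs. The saline change from 6 hr to 24 hr in sensitized dogs gained a call with the dog as a fixed block (1.29) or random block (1.29) and with unscaled signals (1.72). The dog block changed no other call and gives no value, as a fixed block, for differences between the groups of dogs at 1 site. With the slide as a fixed block, the allergen change from 6 hr to 24 hr in sensitized dogs (0.84) and the 24 hr allergen difference between the groups of dogs (2.33) lost their calls. The same block turned the sign of the saline change from 6 hr to 24 hr (-1.38 in sensitized, -1.28 in nonsensitized dogs), of the nonsensitized allergen change (-0.79), of the sensitized saline change from untreated skin to 6 hr (0.73, or 0.04 with the random block), of the nonsensitized 6 hr response (-0.28) and of the 24 hr saline difference between the groups of dogs (-0.37, or -0.24 with the random block). The last was near 0 and also negative without the filter (-0.04) and with unscaled signals (-0.12), and it ranged from -0.51 to 0.36 without single dogs. Without single dogs, the nonsensitized 24 hr response ranged from -0.13 to 0.55 and the 6 hr allergen difference between the groups of dogs from -0.2 to 0.35. The slide as a fixed block also raised that difference at the 6 hr allergen sites from 0.16 to 0.71, the 6 hr difference between the responses to 0.98 and the nonsensitized saline change from untreated skin to 6 hr to 1.56, none of them called. None of these values that changed sign was called. Apart from slides and time, which the design confounds, the causes were not tested. Unscaled signals moved the median of all probes by up to 0.478. A mean over several probes could not be had with 1 probe. With 5 or 6 dogs a group the exact tests cannot fall below 0.0625 or 0.0312 within a group.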
